A study of Mus musculus with 20 samples.

Results

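The genes of the endothelin and natriuretic peptide systems were followed in mouse kidney after ischemia and reperfusion. They are the 9 genes that the array names as Edn1, Edn2, Edn3, Ece1, Ednra, Ednrb, Npr1, Npr2 and Npr3, chosen by name out of 27827 gene names and read by 19 probes. Kidney RNA came from male C57BL/6 mice of 8 to 12 weeks, with 4 arrays in each of 5 groups. Control mice had neither surgery nor treatment. IRI mice had both renal pedicles clamped for 45 minutes and were killed 6 hours after reperfusion. IRI+Hemin mice received Hemin, an inducer of heme oxygenase, at 25 mg/kg 24 hours before the same surgery. IPC+IRI mice had a clamping of 15 minutes, ischemic preconditioning, 7 days before it, and Hemin mice received the drug without surgery. No group had a sham operation, so clamping cannot be told apart from anesthesia and incision. Each array was taken as 1 mouse, since the labels name no pools.

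Endothelin 1 is a vasoconstrictor peptide made mainly by endothelial and tubular cells. It is cut from its precursor by endothelin converting enzyme 1, the product of Ece1, and acts on a receptor that contracts vascular smooth muscle (Ednra) and on a receptor of endothelium and collecting duct that also clears the peptide (Ednrb). The natriuretic peptides oppose its constriction of vessels. Npr1 and Npr2 encode receptors that make cyclic GMP when they bind atrial or C-type natriuretic peptide, and Npr3 encodes the receptor that removes these peptides.

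Values are log2 expression, the log2 of a gene's signal over the 75th percentile of its array, so that 0 stands for that percentile. A gene counted as changed, or called, at an adjusted p below 0.05 in limma fitted to all genes tested. To be tested, a gene had to be well above background on 3 or more of the 4 arrays in 1 of the groups compared. Since no slide held more than 1 group, a slide effect cannot be told apart from a group effect. There were 3 scan days, the first for the Control and IRI slides, the next for IRI+Hemin and the last for the IPC+IRI and Hemin slides. Thus IRI vs Control and IPC+IRI vs Hemin were the comparisons within a scan day. Between 57.4% and 67.4% of gene names were well above background per array, and arrays of a group correlated at 0.975 to 0.995 over genes. In IRI+Hemin, replicate 4 had the lowest 75th percentile, 174 against 251 to 358 in the other 3 arrays.

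Edn1 was the member with the largest rise after injury, and its promoter is shown for that reason, beside that of Ednrb, which moved with it over the arrays. The sequences are those of RefSeq on GRCm38.p6, from 250 bases before to 50 bases after the annotated start, and capitals mark the letters searched. These were the core of the hypoxia response element (ACGTG), the AP-1 site (TGACTCA or TGACTAA), the GATA site (AGATAA) and a heat shock element (GAANNTTC), each on both strands.
Edn1, chr13:42301226-42301525, plus strand: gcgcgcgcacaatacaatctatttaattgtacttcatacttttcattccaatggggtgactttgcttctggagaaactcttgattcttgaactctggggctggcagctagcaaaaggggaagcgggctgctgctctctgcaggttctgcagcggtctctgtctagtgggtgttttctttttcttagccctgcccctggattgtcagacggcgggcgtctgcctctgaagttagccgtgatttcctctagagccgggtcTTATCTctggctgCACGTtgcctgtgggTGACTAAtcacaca
Ednrb, chr14:103843652-103843951, minus strand: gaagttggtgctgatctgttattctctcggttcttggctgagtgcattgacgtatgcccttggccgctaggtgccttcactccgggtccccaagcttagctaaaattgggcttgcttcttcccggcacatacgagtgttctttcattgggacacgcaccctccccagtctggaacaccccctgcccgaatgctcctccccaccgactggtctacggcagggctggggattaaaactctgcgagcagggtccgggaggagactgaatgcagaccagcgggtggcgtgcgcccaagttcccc
The Edn1 window held a GATA site at bases 9 to 14 after the annotated start, a hypoxia response core at bases 22 to 26, both on the minus strand, and an AP-1 site at bases 37 to 43. Of all 32851 promoters of this length, 11.2% held the GATA letters, 19.6% the hypoxia response core, 7.38% the AP-1 letters and 7.86% the heat shock element. The Ednrb window held none of the 4. Among the 12 promoters of the 9 genes, of which Ece1 has 4, the hypoxia response core stood in 2, those of Edn1 and of 1 start of Ece1, and the heat shock element in 0. The motifs were picked after the Edn1 sequence had been read.

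The probes of Npr1 and of Npr2 that lie over the same stretch of the receptors' shared cyclase region are shown because these receptors fell in the same groups. Capitals mark the bases that differ between them in the stretch they share.
Npr1, A_51_P182693: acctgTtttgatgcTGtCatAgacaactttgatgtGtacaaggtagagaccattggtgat
Npr2, A_52_P489373: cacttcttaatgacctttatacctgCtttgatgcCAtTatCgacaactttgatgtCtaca
They share 40 of their 60 bases and are equal at 34 of these. The Npr1 probe (mm9, chr3:90259171-90259664, minus strand) is the sole probe of its gene, and its coordinates run over an exon junction. The Npr2 probe lies at chr4:43661226-43661285 on the plus strand, and Npr2 has 2 further probes.

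In IRI vs Control, Edn1 and Ednrb were higher and Npr3 and Ece1 lower, 4 of the 7 members tested, where 51.0% of all genes tested were called. The same number, 4 of 7, was called in IPC+IRI vs Control, against 56.0% of all genes. IPC+IRI vs IRI also gave 4 of 7, against 44.1%, with Npr1, Npr2 and Ednrb lower and Ece1 higher. IRI+Hemin vs IRI gave 3 of 7, against 44.5%, with Npr1 and Npr2 lower and Ednra higher. Hemin vs Control gave 3 of 8, against 36.1%, with Npr1 and Npr2 lower and Ece1 higher. These shares lay near those of all genes, so the counts say little about the members as a set. Of the remaining comparisons, IRI+Hemin vs Control gave 5 of 7, against 57.6% of all genes, IRI+Hemin vs Hemin 5 of 8, against 44.4%, and IPC+IRI vs Hemin 5 of 8, against 36.0%. Where 8 members were tested, the added one was Edn3, which entered only through Hemin, the group where it was highest. Edn3 was 1 of the 5 called in IRI+Hemin vs Hemin. With the fold cutoff of the study added, 2 members passed in IRI vs Control, against 17.1% of all genes, 1 in IPC+IRI vs Control, against 16.1%, 1 in IPC+IRI vs IRI, against 2.93%, and 1 in Hemin vs Control, against 1.66%. The median log2 fold change of the members tested was -0.29 in IRI vs Control, where that of all genes was -0.17, and -0.48 in IPC+IRI vs IRI, where that of all genes was 0.09. Comparisons that share Control or IRI arrays are not independent of each other.

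**Figure D1:**
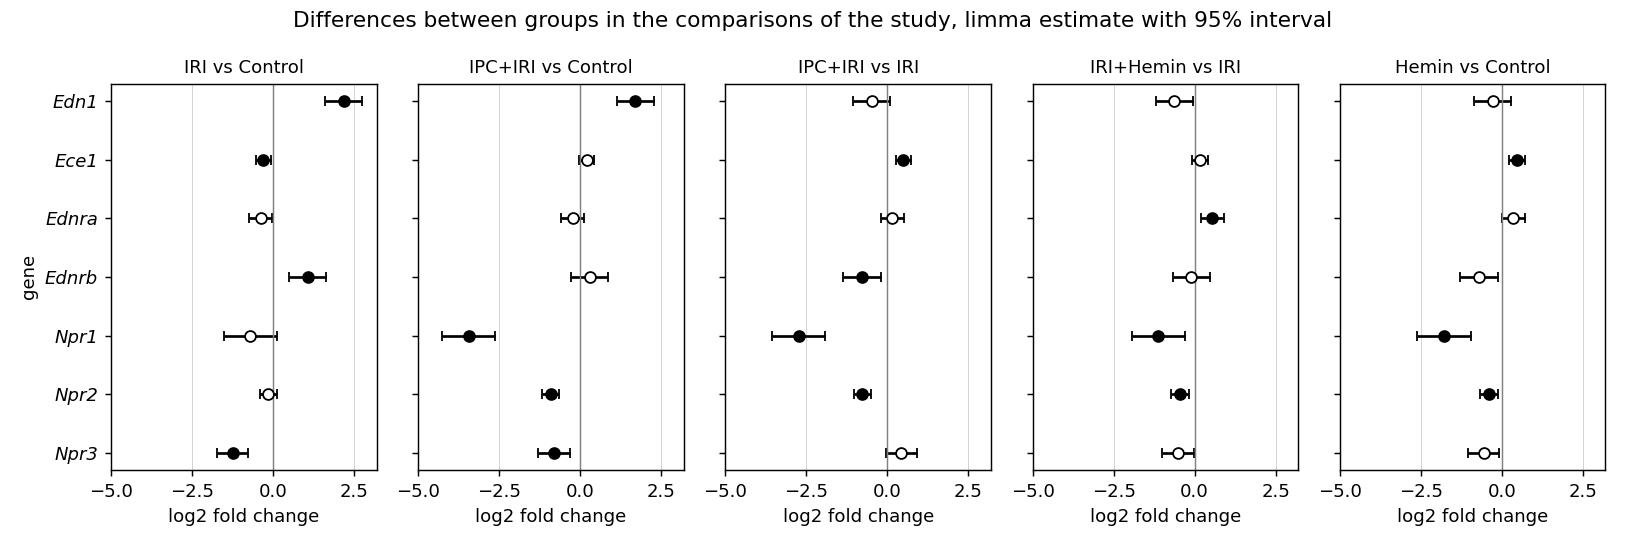
Log2 fold change of the 7 members tested in each comparison of the study, with its 95% interval from limma. Filled points passed an adjusted p below 0.05. Edn1 stood at 2.19 and Npr3 at -1.25 in IRI vs Control. Npr1 was not well above background on any IPC+IRI array, so its points in those comparisons are fitted values and the measured differences are bounds, at least 7.55-fold against Control and at least 4.65-fold against IRI.

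Edn1 was higher in every injured group. Its probe (NM_010104, mm9, chr13:42403101-42403160, plus strand) was well above background on all 20 arrays. Log2 expression was -3.10, -3.02, -3.81 and -3.15 in Control and -0.998, -1.04, -1.05 and -1.25 in IRI. It was -1.45, -1.37, -1.31 and -2.71 in IRI+Hemin and -2.12, -1.36, -1.21 and -1.57 in IPC+IRI. In Hemin it was -3.19, -3.82, -3.60 and -3.59. All 12 arrays of clamped kidneys thus lay above all 8 of unclamped kidneys. How many of all genes separate these arrays in the same way was not counted. The group means fell in the order IRI, IPC+IRI, IRI+Hemin, Control and Hemin, and the arrays of IPC+IRI and IRI+Hemin overlapped, as did those of Control and Hemin.

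The rise of Edn1 over Control was 4.56-fold in IRI (2.19 ± 0.27 log2, SE, adjusted p = 4.29e-06), 3.26-fold in IPC+IRI (adjusted p = 4.78e-05) and 2.95-fold in IRI+Hemin (adjusted p = 0.000104). Against Hemin the rise was 3.96-fold in IPC+IRI, within a scan day, and 3.58-fold in IRI+Hemin. None of the alternative settings run ended these calls. Edn1 did not differ past the threshold between Hemin and Control, with a difference of -0.28 and a 95% interval of -0.85 to 0.29. Nor did it between IPC+IRI and IRI (-0.48, from -1.05 to 0.09). In IRI+Hemin vs IRI the groups did not overlap, as in 38.8% of genes tested, but the difference of -0.63 had an adjusted p of 0.0676. Without IRI+Hemin replicate 4 it was -0.29, and it passed without IRI+Hemin replicate 3 (-0.76) and under normexp background correction (-0.45). In whole kidney, fewer cells of a type and less RNA per cell cannot be told apart.

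The other endothelins were at the limit of detection. Edn2 was well above background on 3 of 20 arrays, 1 of IRI+Hemin and 2 of Hemin, and was not tested. Its log2 expression lay between -7.14 and -4.73. Edn3, the ligand of Ednrb in neural crest development, was well above background on 2 arrays of Control, 3 of Hemin, 0 of IRI, 2 of IPC+IRI and 2 of IRI+Hemin. Edn3 was tested only against the Hemin group, since Hemin alone had 3 arrays above background, so that it entered each test through the group where it was highest. It was lower in IRI+Hemin vs Hemin (-0.57 ± 0.22, adjusted p = 0.0433), a call that was lost when any of 9 single arrays was left out, over a range of -0.82 to -0.41. Those arrays were Control replicate 4, IRI replicate 3, IRI+Hemin replicates 1, 2 and 3, IPC+IRI replicate 4 and Hemin replicates 1, 2 and 3. Quantile normalization (-0.27), normexp background correction (-0.01) and a replicate block in limma (adjusted p = 0.0634) also ended it. The brighter probe, the only one of Edn3 that could be tested there, stood at -0.23 (adjusted p = 0.435).

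Ece1, the converting enzyme, was well above background on every array through 1 of its 2 probes (A_52_P635278, mm9, chr4:137521065-137521124). The other probe, of an Ece1 transcript clone, was above background on none. Log2 expression was 2.25, 2.41, 2.16 and 2.35 in Control, 2.06, 2.07, 2.05 and 1.82 in IRI and 2.10, 2.23, 1.93 and 2.42 in IRI+Hemin. In IPC+IRI it was 2.64, 2.50, 2.36 and 2.46, and in Hemin 2.63, 2.66, 2.77 and 2.97. IRI was the group with the lowest Ece1 and Hemin the one with the highest. These 2 groups did not overlap, and the share of all genes for which this held was not counted. Ece1 was 1.38-fold higher in Hemin vs Control (adjusted p = 0.00461) and 1.41-fold higher in IPC+IRI vs IRI (adjusted p = 0.00215). It stood at -0.59 in IRI+Hemin vs Hemin (adjusted p = 0.000539). When the log2 values of the probe that stayed at background were averaged in, these differences became -0.41, 0.12 and 0.13 and lost their calls. The lower level in IRI vs Control (-0.29 ± 0.11, adjusted p = 0.04) lost its call without any of Control replicates 1, 2 and 4 and IRI replicates 1, 3 and 4, over a range of -0.33 to -0.23, and with a replicate block.

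**Figure D2:**
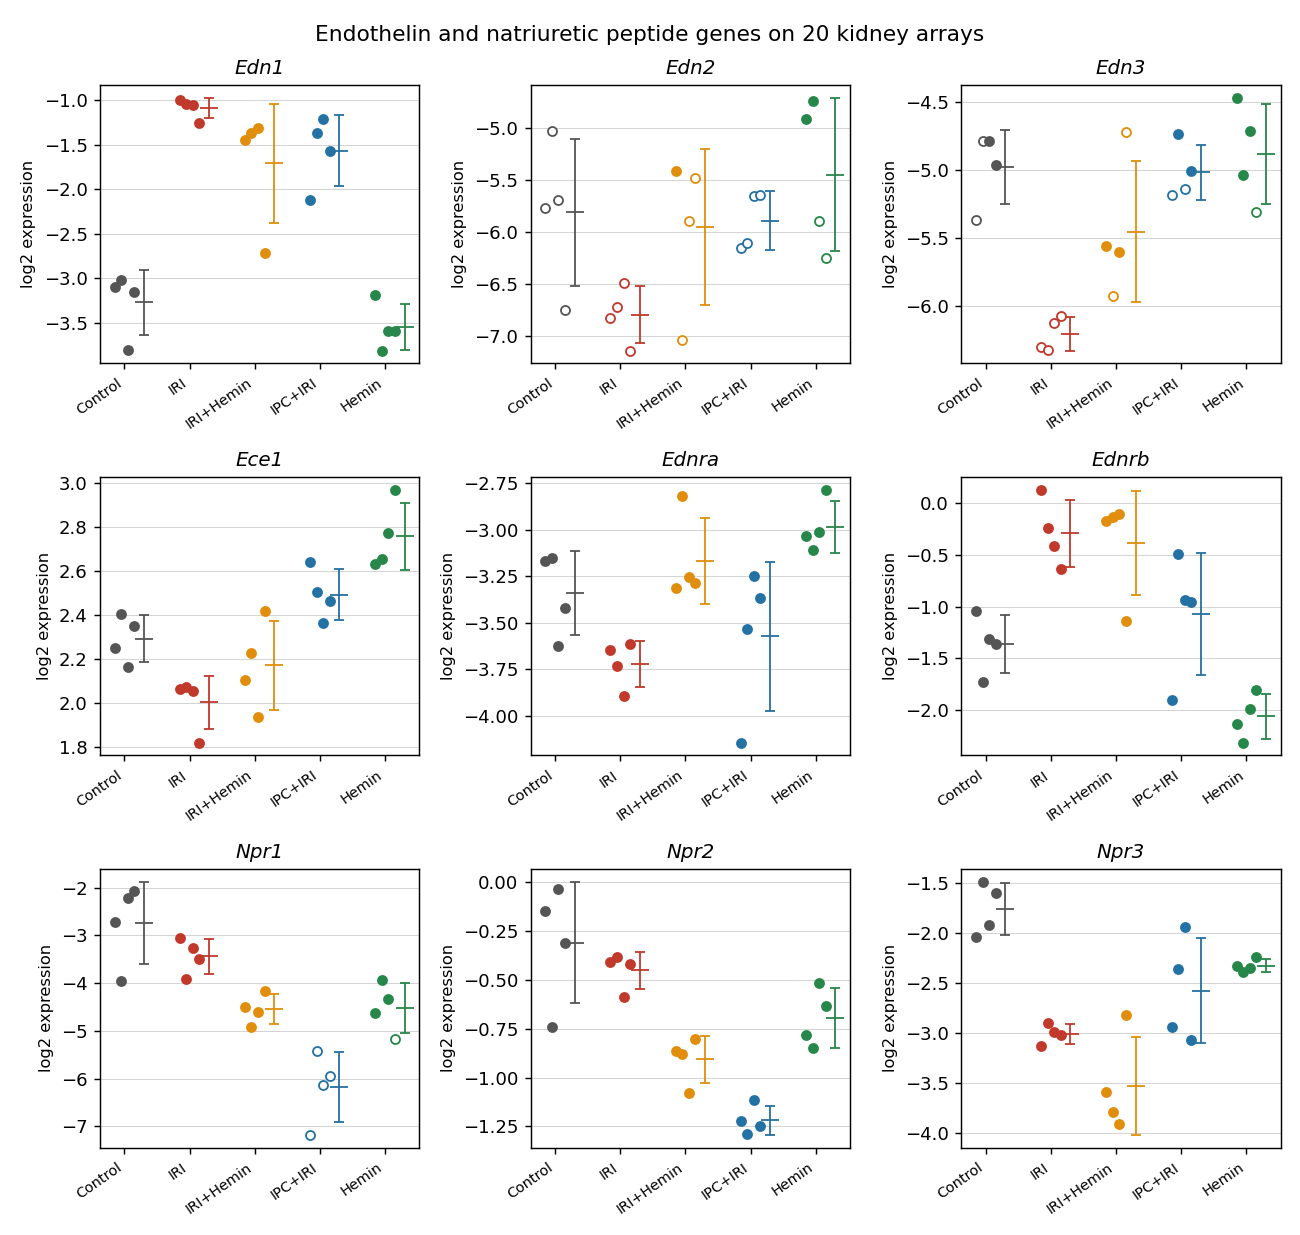
Log2 expression (0 is the 75th percentile of the array) of the 9 genes on each array by group, with the group mean and SD at the right of its points. Open points were not well above background. Edn1 of all 12 arrays of clamped kidneys lies above the 8 others, and Npr1 was not well above background on any IPC+IRI array.

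The 2 endothelin receptors behaved differently. Ednra had 4 probes, of which 2 were above background on no array. Its log2 expression, the mean ± SD over 4 arrays, was -3.34 ± 0.23 in Control, -2.99 ± 0.14 in Hemin, -3.72 ± 0.12 in IRI, -3.57 ± 0.40 in IPC+IRI and -3.17 ± 0.23 in IRI+Hemin. It was 1.47-fold higher in IRI+Hemin vs IRI (adjusted p = 0.0138), with groups that did not overlap, as in 38.8% of genes tested. That call was lost without IRI+Hemin replicate 2 (0.44), and the sign turned under normexp (-0.30) and with the mean of log2 values over probes (-0.06). Within a scan day Ednra was lower in IPC+IRI vs Hemin (-0.59, adjusted p = 0.0124), which normexp reduced to -0.03. Its other differences did not pass, among them -0.38 in IRI vs Control, with an interval of -0.74 to -0.02 and an adjusted p of 0.0708.

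Ednrb was higher in IRI and IRI+Hemin than in Control, and in IPC+IRI its difference from Control did not pass. As a gene it was 2.10-fold higher in IRI vs Control (1.07 ± 0.27, adjusted p = 0.00322), with Control between -1.73 and -1.04 and IRI between -0.64 and 0.13. In IRI+Hemin it lay between -1.14 and -0.10 and was 1.97-fold above Control (adjusted p = 0.00546, but 0.30 and not called by the brighter probe) and above Hemin by 1.68 on the log2 scale (adjusted p = 0.000117). In IPC+IRI it lay between -1.90 and -0.49, 1.99-fold above Hemin within a scan day (adjusted p = 0.00904, but 0.66 and not called by the brighter probe) and 1.72-fold below IRI (adjusted p = 0.0268). Against Control it stood at 0.29 (adjusted p = 0.381), with the dimmer probe higher by 2.08 (adjusted p = 6.11e-06) and the brighter one at -0.51 (adjusted p = 0.152). The call against IRI was lost without IRI replicate 1, IRI replicate 2 or IPC+IRI replicate 1, and its value was -0.50 without IPC+IRI replicate 1. Hemin held the lowest level, between -2.32 and -1.81, and did not overlap with Control, as in 37.6% of genes tested, at an adjusted p of 0.0529.

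The 2 Ednrb probes, both named for NM_007904, moved in opposite directions from IRI to IRI+Hemin and from IRI to IPC+IRI. From IRI+Hemin to IPC+IRI, which were not tested against each other, the means of both were lower, at -0.49 and -1.05 for the dimmer and -0.30 and -1.11 for the brighter. The dimmer probe (A_51_P262964, mm9, chr14:104216247-104216306, minus strand) read -3.01, -2.99, -3.15 and -3.37 in Control and -2.004, -1.80, -2.18 and -2.32 in IRI. It read -0.17, -0.31, -0.03 and -1.47 in IRI+Hemin, -1.80, -0.58, -0.75 and -1.06 in IPC+IRI, and -2.48, -2.49, -2.36 and -2.53 in Hemin. By this probe IRI+Hemin held the highest level and Control the lowest.

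The brighter probe (A_52_P577662, mm9, chr14:104214484-104214543, minus strand) read -0.24, -1.07, -0.53 and -0.56 in Control and 0.96, 0.50, 0.35 and 0.11 in IRI. It read -0.16, 0.03, -0.18 and -0.87 in IRI+Hemin, -2.02, -0.40, -1.15 and -0.86 in IPC+IRI, and -1.86, -2.17, -1.70 and -1.33 in Hemin. By this probe IRI held the highest level and Hemin the lowest.

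Both Ednrb probes were higher in IRI vs Control, by 1.05 (adjusted p = 0.00331) and 1.08 (adjusted p = 0.00543). In IRI+Hemin vs IRI the dimmer probe was higher by 1.58 (adjusted p = 0.000149) and the brighter one lower, at -0.78 (adjusted p = 0.0375). In IPC+IRI vs IRI the dimmer probe was higher by 1.03 (adjusted p = 0.00448) and the brighter one lower, at -1.59 (adjusted p = 0.000332). In Hemin vs Control they stood at 0.67 (adjusted p = 0.0597) and -1.17 (adjusted p = 0.00547). None of the scalings run turned any of these 8 signs. Under normexp the dimmer probe stood at 0.53 in IRI vs Control and 0.45 in IPC+IRI vs IRI and did not pass, and without normalization between arrays the brighter one did not pass in Hemin vs Control (-0.60). The call at -0.78 was lost without IRI replicate 1, 2 or 3 or IRI+Hemin replicate 3 or 4, over a range of -0.90 to -0.59. A replicate block in limma also ended it (adjusted p = 0.0601). With that block the dimmer probe passed in Hemin vs Control (adjusted p = 0.0464). The gene value of Ednrb mixes these probes by their signal, so its direction against IRI is that of the brighter probe. Endothelial markers summed to between 23.4 and 28.5 times the 75th percentile in Control, 24.3 and 31.4 in IRI, 32.7 and 40.0 in IRI+Hemin, 15.1 and 34.4 in IPC+IRI and 27.1 and 34.9 in Hemin, with all 10 above background throughout. By single markers, 2 were higher and 2 lower in IRI vs Control, 2 higher and 4 lower in IPC+IRI vs Control, and 0 higher and 5 lower in IPC+IRI vs IRI, where their median was -0.53. Of all genes tested, 51.0%, 56.0% and 44.1% were called in these comparisons. The 6 collecting duct markers, all above background, summed to between 27.1 and 37.1 in Control, 36.9 and 49.2 in Hemin, 34.8 and 52.0 in IRI, 37.7 and 61.9 in IPC+IRI and 42.2 and 56.3 in IRI+Hemin. Of these, 1 was higher and 1 lower in IRI vs Control, and 4 were higher and 1 lower in each of IPC+IRI vs Control and IRI+Hemin vs Control. The shares of all genes called there were 51.0%, 56.0% and 57.6%. The part of either list in the Ednrb and Edn1 results was not tested.

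**Figure D3:**
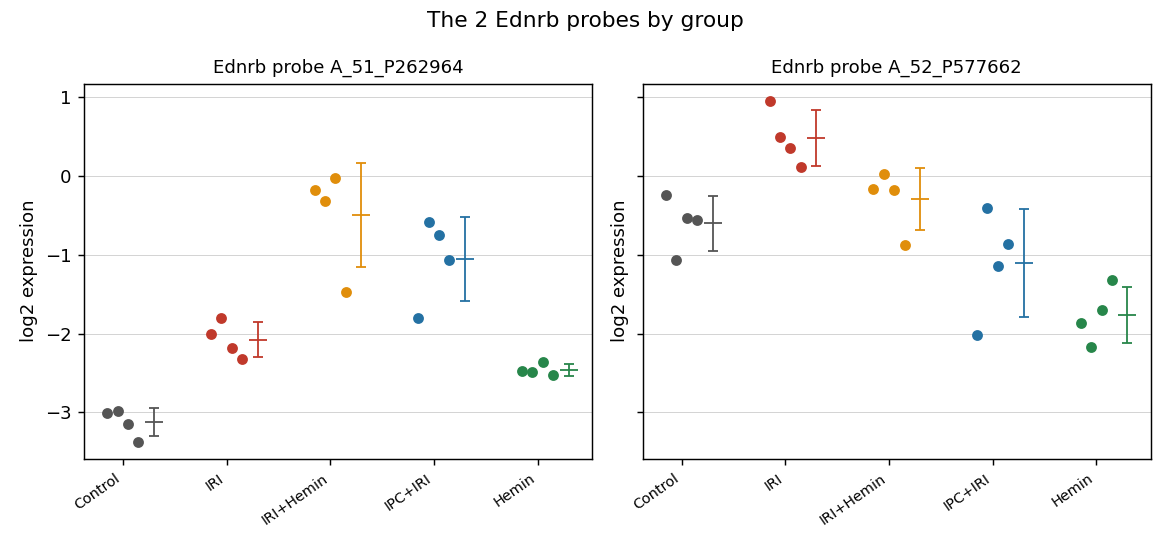
Log2 expression of the 2 Ednrb probes on each array by group, with the group mean and SD at the right of its points. Both probes are higher in IRI than in Control, and from IRI to IRI+Hemin the first goes from a mean of -2.08 to -0.49 and the second from 0.48 to -0.30.

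Npr1, the receptor of atrial natriuretic peptide, was lower in IPC+IRI than in every group tested against it. Log2 expression was -2.71, -3.96, -2.22 and -2.06 in Control and -3.06, -3.91, -3.27 and -3.50 in IRI. It was -4.51, -4.92, -4.59 and -4.16 in IRI+Hemin and -4.62, -3.94, -4.34 and -5.18 in Hemin, where the last array was not well above background. In IPC+IRI it was -7.18, -5.42, -6.14 and -5.95, and on none of these arrays was it well above background. IPC+IRI did not overlap with any group, and Control replicate 2 lay below all IRI arrays. The share of all genes in which IPC+IRI lay apart in this way was not counted.

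Npr1 in IPC+IRI was at least 7.55-fold lower than in Control (adjusted p = 1.92e-06), at least 4.65-fold lower than in IRI (adjusted p = 4.37e-05) and, within a scan day, at least 2.20-fold lower than in Hemin (adjusted p = 0.00324). These bounds set each dim array at the higher of its own signal and the lowest signal well above background on it. The adjusted p values are limma's for the signals as measured, not for the bounds. Npr1 entered each of these tests only through the group compared with IPC+IRI, where it was higher. Against Hemin, normexp left a difference of -0.06. Of the 10 endothelial markers, 0 were higher and 5 lower in IPC+IRI vs IRI, where 44.1% of all genes tested were called. In IPC+IRI vs Hemin 1 was higher and 4 lower, against 36.0% of all genes. All 3 red blood cell markers were lower in IPC+IRI vs IRI, at a median of -1.61, and none was called in IPC+IRI vs Control or vs Hemin. Their sum ranged from 10.6 to 54.2 in IPC+IRI and from 75.9 to 97.2 in IRI. The part of these markers in the Npr1 and Npr2 results was not tested. Npr1 was 3.44-fold lower in Hemin vs Control (adjusted p = 0.00221) and 3.51-fold lower in IRI+Hemin vs Control (adjusted p = 0.000771). In IRI+Hemin vs IRI it was 2.16-fold lower (adjusted p = 0.0275), a call lost without IRI replicate 1 or 3 or IRI+Hemin replicate 2 or 3, over a range of -1.27 to -0.99. The IRI vs Control difference of -0.70 did not pass, with an interval of -1.52 to 0.12, and without Control replicate 2 it was -1.10 and passed.

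Npr2, the receptor of C-type natriuretic peptide, followed the same order over groups. Log2 expression was -0.15, -0.74, -0.03 and -0.31 in Control and -0.41, -0.38, -0.59 and -0.42 in IRI. It was -0.78, -0.85, -0.51 and -0.63 in Hemin, -0.86, -0.88, -1.08 and -0.80 in IRI+Hemin and -1.22, -1.29, -1.11 and -1.25 in IPC+IRI. The 4 IPC+IRI arrays lay below all others, and the share of all genes that separate so was not counted. Npr2 was 1.88-fold lower in IPC+IRI vs Control (adjusted p = 1.64e-05), 1.70-fold lower in IPC+IRI vs IRI (adjusted p = 0.000164) and 1.44-fold lower in IPC+IRI vs Hemin (adjusted p = 0.00427). It was 1.37-fold lower in IRI+Hemin vs IRI (adjusted p = 0.00803) and 1.51-fold lower in IRI+Hemin vs Control (adjusted p = 0.000753). Under normexp the differences from Hemin and of IRI+Hemin vs IRI were -0.30 and -0.32 and did not pass. The 1.31-fold lower level in Hemin vs Control (adjusted p = 0.0262) was lost without Control replicate 1, 3 or 4 or Hemin replicate 1 or 2, over a range of -0.53 to -0.30, and turned to 0.18 without normalization between arrays.

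Probes of Npr2 did not all move alike. In IPC+IRI vs IRI the 2 brighter probes fell, A_51_P518940 by 0.81 (adjusted p = 8.02e-05) and A_52_P489373 by 0.77 (adjusted p = 0.00267), while the dimmest, A_52_P565549, stood at 0.05 (adjusted p = 0.902). Of the 3 probes only A_51_P518940 passed in IRI+Hemin vs IRI, at -0.55 (adjusted p = 0.00186), with A_52_P489373 at -0.34 (adjusted p = 0.145) and A_52_P565549 at 0.28 (adjusted p = 0.482). In IRI vs Control the dimmest probe alone passed, at -0.99 (adjusted p = 0.0137). Npr1 and Npr2 were highest in the groups scanned on the first day, Control and IRI, so that most of these differences cannot be told apart from scan day. The differences between IPC+IRI and Hemin lay within a day.

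Npr3, the clearance receptor, was lower in every injured group than in Control. Log2 expression was -2.04, -1.49, -1.92 and -1.60 in Control and -3.13, -2.90, -2.99 and -3.02 in IRI. It was -3.59, -3.79, -3.90 and -2.82 in IRI+Hemin, -2.94, -2.36, -1.94 and -3.07 in IPC+IRI, and -2.33, -2.39, -2.35 and -2.24 in Hemin. The IRI and IRI+Hemin arrays lay below all of Control, and IPC+IRI replicate 3 lay within the range of Control. In IRI vs Control the groups did not overlap in 46.1% of genes tested. Npr3 was 2.37-fold lower in IRI vs Control (-1.25 ± 0.23, adjusted p = 0.000251), 1.76-fold lower in IPC+IRI vs Control (adjusted p = 0.00653), 3.39-fold lower in IRI+Hemin vs Control (adjusted p = 7.2e-06) and 2.29-fold lower in IRI+Hemin vs Hemin (adjusted p = 0.000546). The brightest probe of Npr3 (A_51_P247184), well above background on all arrays, was lower by 1.25 on the log2 scale in IRI vs Control. The other 2 probes were also called lower there, but in IRI they were well above background on 1 and 2 of the 4 arrays, so that their sizes are limited by background. Under normexp these differences did not pass in IRI vs Control (-0.34), IPC+IRI vs Control (-0.48) and IRI+Hemin vs Hemin (-0.47).

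The uninjured Hemin arrays also lay below all Control arrays in Npr3, where the groups did not overlap in 37.6% of genes tested. The difference of -0.56 did not pass (adjusted p = 0.0663), with 1 of the 3 probes called lower (A_52_P400798, -0.72, adjusted p = 0.0397). The difference of Npr3 in IRI+Hemin vs IRI (-0.52, adjusted p = 0.0793) did not pass, and its sign turned in the deposited matrix. It was -0.75 and passed without IRI+Hemin replicate 4. In IPC+IRI vs IRI the difference was 0.43, with an interval of -0.05 to 0.92, and its sign turned under normexp. Npr3 is expressed in podocytes, and 6 podocyte markers, all above background, summed to a median of 5.95 in Control (4.35 to 6.85), 5.32 in Hemin (4.95 to 6.04), 3.99 in IRI (3.74 to 4.34), 4.32 in IPC+IRI (3.78 to 4.75) and 4.44 in IRI+Hemin (4.30 to 5.04). Fat cells also carry Npr1 and Npr3. The sum of 3 fat markers ranged from 0.0418 to 27.7 among the Control arrays (median 0.0482), with none of the 3 above background on all 4. It ranged from 0.0896 to 17.4 in IRI (median 1.77) and from 0.12 to 8.9 in IRI+Hemin (median 0.635). In IPC+IRI the range was 0.145 to 1.94 (median 0.163) and in Hemin 0.0632 to 5.86 (median 0.771). The part of either list in these results was not tested.

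The change with injury in Hemin-treated mice was set against that in untreated mice, (IRI+Hemin minus Hemin) minus (IRI minus Control). None of the 8 members tested passed in limma, with estimates from -0.35 to 0.67, adjusted p from 0.224 to 0.956 and 0 members at an unadjusted p below 0.05. Of all genes tested, 7.79% were called. The brighter probe of Edn3 (A_51_P287286) was called at 1.37 (adjusted p = 0.0129) where the gene stood at 0.66. It was well above background on 0 arrays of IRI and 2 of Control, and entered the test only through Hemin. Its size is thus limited by background. The smallest two-sided p of an exact permutation test of 4 against 4 arrays is 0.029, which Edn1, Ednrb, Ece1 and Npr3, of the 7 members tested, had in IRI vs Control, where the groups did not overlap in 46.1% of all genes tested.

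Over the 20 arrays, as a description of arrays that share groups, slides and scan days, Edn1 and Ednrb correlated at 0.845 and Npr1 and Npr2 at 0.871. Among 14533 genes well above background on all arrays, those most like Edn1 were Hspb1, a small heat shock protein, at a Pearson correlation of 0.969, Inhbb, a subunit of activin, at 0.967 and Ptp4a1 at 0.958. Ednrb was most like Gpihbp1, which holds lipoprotein lipase on capillary endothelium, at 0.941, 1810074P20Rik at 0.937 and Entpd1 at 0.923. Npr2 was most like Tln1, Fut8 and Hs2st1, at 0.934 to 0.946. For Npr3 these were 1110013L07Rik, EG434674 and Itga8, an integrin of mesangial cells, at 0.896 to 0.908. Ece1 was most like B9d1, Cutc and a transcript without a symbol, at 0.944 to 0.953, and Ednra like Eepd1, Grap and another such transcript, at 0.862 to 0.873.

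Genes that make or remove the peptides were counted next. Of 15 such genes, 11 were tested in IRI vs Control, where 4 were lower and 0 higher, at a median of -0.15. Nppa, the precursor of atrial natriuretic peptide, went from -3.71 ± 0.14 in Control to -4.63 ± 0.15 in IRI (adjusted p = 3.83e-06) and Nppb, that of brain natriuretic peptide, from -3.01 ± 0.34 to -3.64 ± 0.22 (adjusted p = 0.00631), but under normexp these differences were 0.08 and 0.03 and had turned sign. Ecel1, a relative of Ece1, was lower by 1.30 on the log2 scale (adjusted p = 0.000115), and at -0.49 under normexp it did not pass. Nppc, the precursor of C-type natriuretic peptide, was not well above background on any array.

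Corin, the protease that activates atrial natriuretic peptide, stood at -2.53 ± 0.94 in Control, -3.16 ± 0.23 in Hemin, -2.79 ± 0.35 in IRI, -3.42 ± 0.44 in IRI+Hemin and -4.57 ± 0.55 in IPC+IRI, where 3 of 4 arrays were above background. It was lower in IPC+IRI vs IRI (-1.78, adjusted p = 0.000887) and in IPC+IRI vs Control (-2.04, adjusted p = 0.00016). Mme, the protease neprilysin that degrades natriuretic peptides and endothelin, did not pass in IRI vs Control (0.02, adjusted p = 0.916) and was lower in IPC+IRI vs IRI (-0.48, adjusted p = 0.023) and in IRI+Hemin vs IRI (-0.53, adjusted p = 0.013). The Mme calls were lost under normexp, at -0.35 and -0.32, and that in IPC+IRI vs IRI also without IPC+IRI replicate 2, at -0.36.

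Of 22 genes of cyclic GMP synthesis, effects and breakdown, 21 were on the array and 17 were tested in IRI vs Control, where 3 were higher and 6 lower. Nos3, the endothelial nitric oxide synthase, rose by 2.01 (adjusted p = 6.03e-07) and Vasp, a substrate of the cyclic GMP kinase, by 0.90 (adjusted p = 2.48e-05). Gucy1a3, a subunit of the soluble guanylyl cyclase, fell by 1.54 on the log2 scale (adjusted p = 0.000228) and Nos1, the neuronal synthase, by 1.22 (adjusted p = 0.000549). Under normexp the falls of Gucy1a3 and Nos1 were -0.32 and -0.10 and did not pass.

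Of 32 genes downstream of the endothelin receptors, all tested, 7 were higher and 7 lower in IRI vs Control. Rgs2, which limits signalling through Gq, rose by 1.13 (adjusted p = 0.000121) and Gna13, a G protein subunit, by 0.98 (adjusted p = 0.000181). Prkcb, a protein kinase C, fell by 1.26 on the log2 scale (adjusted p = 0.00371) and Itpr2, an inositol trisphosphate receptor, by 1.00 (adjusted p = 0.000126). Prkcb did not pass under normexp (-0.13) or by its brightest probe (-0.19). The shares called, 4 of 11, 9 of 17 and 14 of 32, stand beside the 51.0% of all genes.

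**Figure D4:**
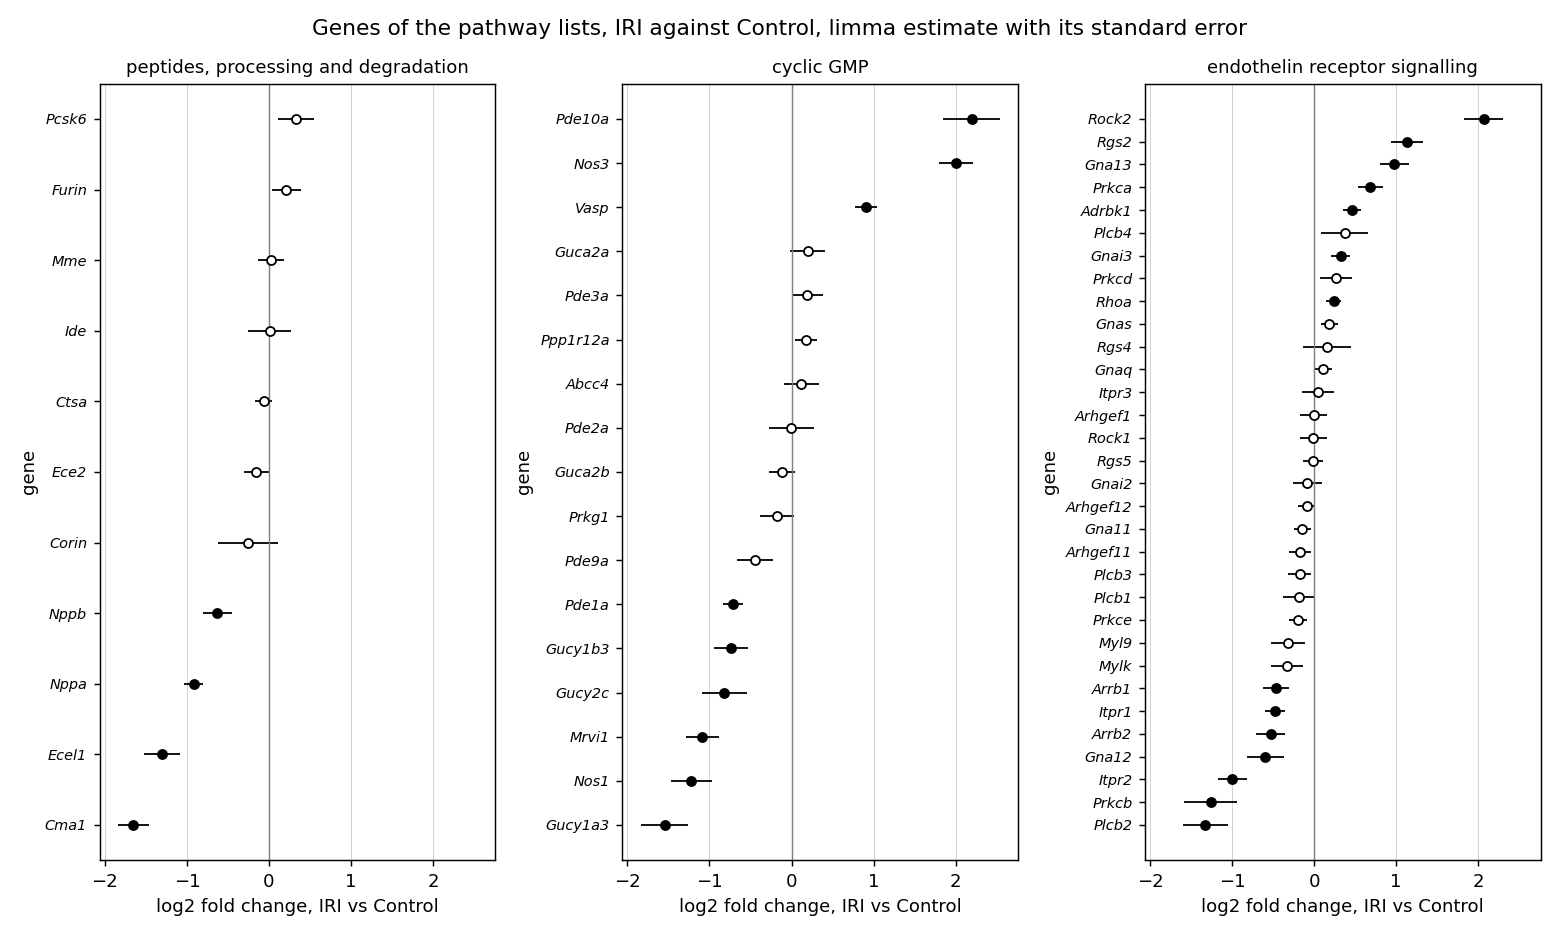
Log2 fold change in IRI vs Control of the genes tested in each of the 3 pathway lists, sorted within the list, with the standard error from limma. Filled points passed an adjusted p below 0.05. Nos3 stands at 2.01 and Gucy1a3 at -1.54 in the cyclic GMP list.

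Markers of the kidney's own cells, the proximal tubule, thick limb, collecting duct, endothelium, vascular smooth muscle and podocyte lists, were above background on every array of each group. The sum of the smooth muscle and mesangial markers had a median of 13.9 in Control, 12.9 in Hemin, 19.1 in IRI, 13.6 in IPC+IRI and 14.1 in IRI+Hemin. Of these 9 markers 2 were higher in IRI vs Control, Tagln by 0.86 (adjusted p = 7.92e-05) and Acta2 by 0.54 (adjusted p = 0.000754), and 1 was lower, Itga8 at -0.59 (adjusted p = 0.00227). Of all genes tested, 51.0% were called there. Markers of leukocytes, which carry endothelin receptors on some types, summed to between 0.860 and 1.13 in Control, 3.65 and 9.03 in IRI, 2.78 and 10.8 in IRI+Hemin, 6.77 and 20.3 in IPC+IRI and 0.842 and 2.02 in Hemin. The leukocyte sums thus separated clamped from unclamped kidneys as Edn1 did, and their part in the Edn1 result was not tested.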

How the data were processed

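Kidney RNA of 20 mice was hybridized to 1-colour Agilent arrays. Scanner files with the intensity of each spot were deposited by the authors. In them Agilent Feature Extraction 9.5.3.1 had, per the labels and file headers, subtracted background and corrected trends within each array. The deposited log2 matrix holds the log2 of the same processed signal, with 18.1% of values blank and no scaling between arrays.

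Spots marked as uneven or as outliers (0.208%) were left out, none of them of a member, and no member spot was saturated. Probe values, means over spots, were divided by the 75th percentile of the 41174 probes of their array, the mean over a gene's probes was formed, the step the study's methods describe, before log2 transformation. Genes with at most 1 missing value and with 3 of 4 arrays of either group well above background were tested with limma 3.58.1 in R 4.3.3 on all 20 arrays, with 15 residual degrees of freedom. Benjamini-Hochberg adjustment covered all genes tested in a comparison. The study used SAM, which was not run here. Tested on simulated data with 200 genes changed by 2 on the log2 scale, the fit recovered between 83.5% and 97.5% of them over the comparisons. Single probes were fitted in the same way. The number of arrays limits the precision.

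The members, pathway lists and marker lists were chosen with earlier results of these data known. Named pathway genes are, by list, the 2 that rose most and the 2 that fell most among genes called in IRI vs Control with all 8 arrays above background, with Nppa, Nppb, Nppc, Mme and Corin. Gene names and mm9 probe coordinates are those of the array files, without an annotation of exons for that build. Gucy1a2, Ly6g, Cyp11b1, Plin1 and Hbb-b2 of the lists were not matched by name. Alternatives were normexp on the mean signal with an offset of 50, other scalings, other summaries of probes, other filters, the deposited matrix, the arrays compared alone, a replicate block and leaving out each array.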

Additional observations from a re-analysis of the deposited data

Results flagged for a closer look

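Among 45 sets of 4 arrays, 1 for each of the 9 genes in each group, 5 held an array whose gap to its neighbour passed Dixon's critical value for 4 samples. Chance gives about 1 in 20. Edn1 stood apart in Control replicate 3, at -3.81 against -3.15 to -3.02 in the other 3 arrays, and in IRI+Hemin replicate 4, at -2.71 against -1.45 to -1.31. Ednrb stood apart in that same array, at -1.14 against -0.17 to -0.10. Ednra did so in IRI+Hemin replicate 2, at -2.82 against -3.31 to -3.25, and Ece1 in IRI replicate 4, at 1.82 against 2.05 to 2.07. IRI+Hemin replicate 4 also had the lowest 75th percentile of its group, at 174.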

How the results depend on the processing

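Of the members' counts, that in IRI vs Control was 2 under normexp and 2 with the study's fold cutoff added. With that cutoff it was 1 in IPC+IRI vs Control, 1 in IPC+IRI vs IRI and 1 in Hemin vs Control. With the mean of log2 values over probes it was 2 in IPC+IRI vs IRI, 1 in IRI+Hemin vs IRI and 3 in IRI+Hemin vs Hemin. With the percentile over probes well above background it was 5 in Hemin vs Control. In IRI+Hemin vs Hemin it was 3 under normexp and 2 in the deposited matrix, and in IPC+IRI vs Hemin 2 under normexp, 2 without normalization and 3 in the matrix. Calls over all genes fell as well. Under normexp they went from 3023 higher and 6007 lower to 1789 and 1394 in IRI vs Control. In IRI+Hemin vs Hemin they went from 3068 and 5199 to 2049 and 2295 under normexp and 1911 and 4312 in the matrix. In IPC+IRI vs Hemin they went from 2440 and 4233 to 1372 and 1415 under normexp. They were 1030 and 3064 there without normalization and 1355 and 4338 in the matrix. The brightest probe gave 1 call in the interaction, Edn3. Leaving out 1 array gave 3 to 6 calls in IRI vs Control, 4 to 4 in IPC+IRI vs Control, 3 to 5 in IPC+IRI vs IRI, 2 to 5 in IRI+Hemin vs IRI, 2 to 5 in Hemin vs Control, 5 to 6 in IRI+Hemin vs Control, 4 to 5 in IRI+Hemin vs Hemin, 5 to 5 in IPC+IRI vs Hemin and 0 to 0 in the interaction. The count of 5 in IRI+Hemin vs IRI came without IRI+Hemin replicate 4. Edn1, Ece1 and Ednrb did not pass there, so a gene near background, Edn2 or Edn3, was among the calls.

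Of single results outside the arrays left out, 785 kept their direction and side of the threshold, 88 lost and 40 gained a call and 41 reversed. The cause was not tested for any of them. Normexp reversed Ednra in IRI vs Control (0.14), IPC+IRI vs IRI (-0.37), IRI+Hemin vs IRI (-0.30), Hemin vs Control (-0.21) and IRI+Hemin vs Control (-0.17), Npr3 in IPC+IRI vs IRI (-0.14), Edn3 in Hemin vs Control (-0.37), Nppa in IRI vs Control (0.077), IPC+IRI vs IRI (-0.44) and IRI+Hemin vs IRI (-0.46), and Nppb in IRI vs Control (0.031). Quantile normalization reversed Mme (-0.012) and Corin (0.055) in IRI vs Control, and the percentile over probes above background Mme there (-0.058) and Edn3 in Hemin vs Control (-0.020). The matrix reversed Mme in IRI vs Control (-0.16), Ednra (0.092) and Ednrb (-0.40) in IPC+IRI vs Control, Nppa in IPC+IRI vs IRI (-0.27), Npr3 (0.45), Nppa (-0.026) and Nppb (0.014) in IRI+Hemin vs IRI and Edn3 in Hemin vs Control (-0.16). Without normalization, Ednra in IPC+IRI vs Control (0.21), Ednrb in IRI+Hemin vs IRI (0.27), Ece1 in IRI+Hemin vs Control (0.36) and, in Hemin vs Control, Edn1 (0.29), Npr2 (0.18), Npr3 (0.0016), Nppa (0.17) and Mme (0.19) reversed. The brightest probe reversed Ednrb in IPC+IRI vs Control (-0.51) and Edn3 in Hemin vs Control (-0.48). The mean of log2 values reversed Ece1 in IPC+IRI vs Control (-0.42), Hemin vs Control (-0.41) and IRI+Hemin vs Hemin (0.13), Ednrb in IRI+Hemin vs IRI (0.40), and, for Ednra, IRI+Hemin vs IRI (-0.057), IPC+IRI vs IRI (-0.25), Hemin vs Control (-0.10) and IRI+Hemin vs Control (-0.34). Leaving out 1 array spread Mme (-0.086 to 0.11) and Corin (-0.57 to 0.16) in IRI vs Control, Ednrb in IRI+Hemin vs IRI (-0.21 to 0.16) and Edn3 in Hemin vs Control (-0.043 to 0.24) over both signs.

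Without normalization the median of all genes moved from 0.06 to 0.62 in Hemin vs Control, from 0.08 to 0.45 in IRI+Hemin vs IRI, from 0.09 to 0.41 in IPC+IRI vs IRI and from -0.09 to 0.35 in IPC+IRI vs Control. The calls in Hemin vs Control went from 3442 higher and 3271 lower to 8824 higher and 490 lower, and in IPC+IRI vs Control from 4266 and 6013 to 6215 and 2056. Under normexp the median of all genes went from -0.174 to 0.022 in IRI vs Control. It went from 0.0929 to -0.171 in IPC+IRI vs IRI and from 0.0823 to -0.195 in IRI+Hemin vs IRI. The labels do not say that a replicate number marks a shared batch or day. The correlation of same-numbered arrays' deviations ranged from -0.381 to 0.149, and in IRI vs Control it exceeded 0.1 in 3 of 4 pairs and in no comparison in all 4, so the pairing was not used. With the replicate block, Ece1 in IRI vs Control (-0.29) had an adjusted p of 0.0519 and Edn3 in IRI+Hemin vs Hemin (-0.57) one of 0.0634, the brighter Ednrb probe in IRI+Hemin vs IRI one of 0.0601 and the dimmer one in Hemin vs Control one of 0.0464. The slide as a block was not run, since each group lay on 1 slide of its own. Signal near background limits Edn2, Edn3, Nppc, the 2 dimmer probes of Npr3, and Npr1 in IPC+IRI.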
